A study of Mus musculus with 8 samples.

Results

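The genes described here encode the subunits of the mitochondrial respiratory chain and of ATP synthase, measured in RAW 264.7 cells, a mouse macrophage-like line that the labels trace to BALB/c mice. Members were the array probes, controls left out, whose gene symbol begins with Ndufa, Ndufb, Ndufc, Ndufs, Ndufv, Uqcr, Cox4i, Cox5, Cox6, Cox7, Cox8 or Atp5, or is Sdha, Sdhb, Sdhc or Sdhd. The scanner files used here held transcript accessions and no column of gene names, so symbols were looked up by accession in RefSeq's gene list for GRCm38.p6, which keeps the older Atp5 names. The rule found 115 probes of 91 genes among 41174 probes of 18751 named genes. Of these, 113 probes of 89 genes had enough signal to be tested. The 2 left out were Cox4i2 and Cox8c, tissue-restricted isoforms of complex IV subunits. Cox4i2 was well above background on 1 of 8 arrays, in Cy3, and Cox8c on 0.

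Cells received 1 of 3 bacteria, Bacillus clausii, Bifidobacterium bifidum or Lactobacillus acidophilus, at a multiplicity of infection of 1 for 6 hours, and were compared with untreated cells of the same time. Each 2-colour array set RNA of treated cells (Cy5) against RNA of untreated cells (Cy3), with 3 arrays each of B. clausii and B. bifidum and 2 of L. acidophilus. Dyes were not swapped on any array, no label ties an array to its own culture, and whether arrays shared untreated RNA is not given in the sources used here. The p-values thus rest on how far these arrays differ, and that spread may be technical. Without a dye swap, a ratio alike on all arrays cannot be told apart from a probe's difference between the dyes. The p-values do not cover such a difference. Slide 1 held both L. acidophilus arrays and replicate 3 of B. clausii and of B. bifidum, and slide 2 held replicates 1 and 2 of those 2 strains.

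The respiratory chain passes electrons from NADH (complex I) and succinate (complex II) through complex III to complex IV, which reduces oxygen, and complexes I, III and IV pump protons as they do so. ATP synthase, or complex V, lets the protons back through its membrane ring and makes ATP. Macrophages exposed to bacterial products are known to shift away from oxidative phosphorylation toward glycolysis, and complex II is known for its part in their inflammatory response. All the members are nuclear genes, so the subunits encoded by mitochondrial DNA are not among them.

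The member genes lie on 19 chromosomes. Of the 91, 75 had an entry in the RefSeq table of promoters (GRCm38.p6), which gave 80 windows, and the 250 bases before each start site were searched for motifs on both strands. The motif of NRF1, a transcription factor known to bind respiratory genes, was searched as GCGCANGCGC and its reverse complement GCGCNTGCGC, which coincide where the middle bases are AT. It was present in 15 of 80 member windows (18.8%), in 1010 of 15323 windows of genes kept on the array (6.59%) and in 1228 of all 32851 windows (3.74%). The ETS-family core CGGAAG was in 35% of member windows against 20.9% and 13.6%, and the GC box of Sp1, GGGCGG, in 37.5% against 50.5% and 32.7%. The YY1 motif AAGATGGC was in 1.25% of member windows, against 1.74% and 1.56%, and the ERR alpha motif TCAAGGTCA in 1.25%, against 0.241% and 0.387%. These matches are letters in a window and are not measured binding sites. The 60 bases around the NRF1 motif are shown for 7 of the members described below that hold it. They run in the direction of the gene, with the motif in capitals. Others that hold it, such as Ndufa11 and Ndufs5, are not shown. Whether the motif bears on the ratios was not tested.

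Atp5k, chr5:108434415-108434474, minus strand: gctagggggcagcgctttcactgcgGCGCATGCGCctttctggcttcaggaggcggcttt
Atp5h, chr11:115420026-115420085, minus strand: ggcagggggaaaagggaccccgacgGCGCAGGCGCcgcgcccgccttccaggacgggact
Ndufb4, chr16:37654369-37654428, minus strand: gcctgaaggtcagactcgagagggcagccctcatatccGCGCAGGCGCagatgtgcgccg
Ndufs6, chr13:73328483-73328542, minus strand: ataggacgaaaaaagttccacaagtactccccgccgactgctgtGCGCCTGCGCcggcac
Ndufaf4, chr4:24897945-24898004, plus strand: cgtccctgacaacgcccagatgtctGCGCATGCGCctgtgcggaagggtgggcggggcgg
Ndufa5, chr6:24527682-24527741, minus strand: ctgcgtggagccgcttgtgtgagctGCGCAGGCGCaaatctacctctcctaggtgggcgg
Sdha, chr13:74350241-74350300, minus strand: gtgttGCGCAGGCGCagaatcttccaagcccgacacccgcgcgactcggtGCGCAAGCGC

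All values below are log2 ratios of treated over untreated cells after loess normalization, in which 0 is the level of spots of like brightness on the same array. Members were bright, with a median log2 brightness of 12.5 to 14.7 on 7 arrays against 7.33 to 8.95 over all probes. The loess curve therefore bears on them strongly, and with plain median centring the ratios of nearly all members shift together. Cox6a1, a complex IV subunit, was the only member with a saturated spot, on B. clausii replicates 1 and 2 and B. bifidum replicate 1, and these values were left out; its value on B. clausii replicate 3 was also missing. B. clausii replicate 3 had 12543 probes well above background against 21508 to 26473 on the other arrays, a median member brightness of 9.79, and a grid that the scanner software rated as not good. Of 8 macrophage markers, 7 had a probe and all 7 were well above background on 8 of 8 arrays, while Epcam, an epithelial marker, was so on 0 and the T cell marker Cd8a on 8.

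Across the members, levels stood slightly below untreated cells with B. bifidum on each array and close to them with the other strains. The median member had a log2 ratio of −0.13, −0.11 and −0.11 on B. bifidum replicates 1, 2 and 3. On the B. clausii arrays it was 0.05, 0.03 and −0.06 for replicates 1, 2 and 3, and on the L. acidophilus arrays −0.04 and −0.05. Median centring kept the direction for B. bifidum, at −1.03 on slide 2 and −0.29 on slide 1, but turned B. clausii on slide 2 to −0.52 and L. acidophilus to 0.39, while the median of all kept probes moved to between −0.26 and 0.11. The spread of the members also differed by array, and so did that of all probes. On slide 2 the middle 50% of B. clausii values ran from −0.19 to 0.29 on replicate 1, and on slide 1 from −0.19 to 0.09 on replicate 3. For all probes it ran from −0.23 to 0.18 and from −0.10 to 0.11 on the same 2 arrays. Of 111 members with a value on all 3 B. bifidum arrays, 58 (52.3%) were below 0 on each and 10 (9.01%) above 0 on each, against 22.5% and 16.8% of all probes. With L. acidophilus 46.8% were below 0 on both arrays and 31.5% above, against 31.9% and 39.7% of all probes. For B. clausii the shares were 27.5% and 19.3%, against 20.8% and 19.1%. On all 8 arrays 18.9% of members were below 0 and 6.6% above, against 5.74% and 4.49%. Part of the lean below 0 was thus shared across strains.

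**Figure D1:**
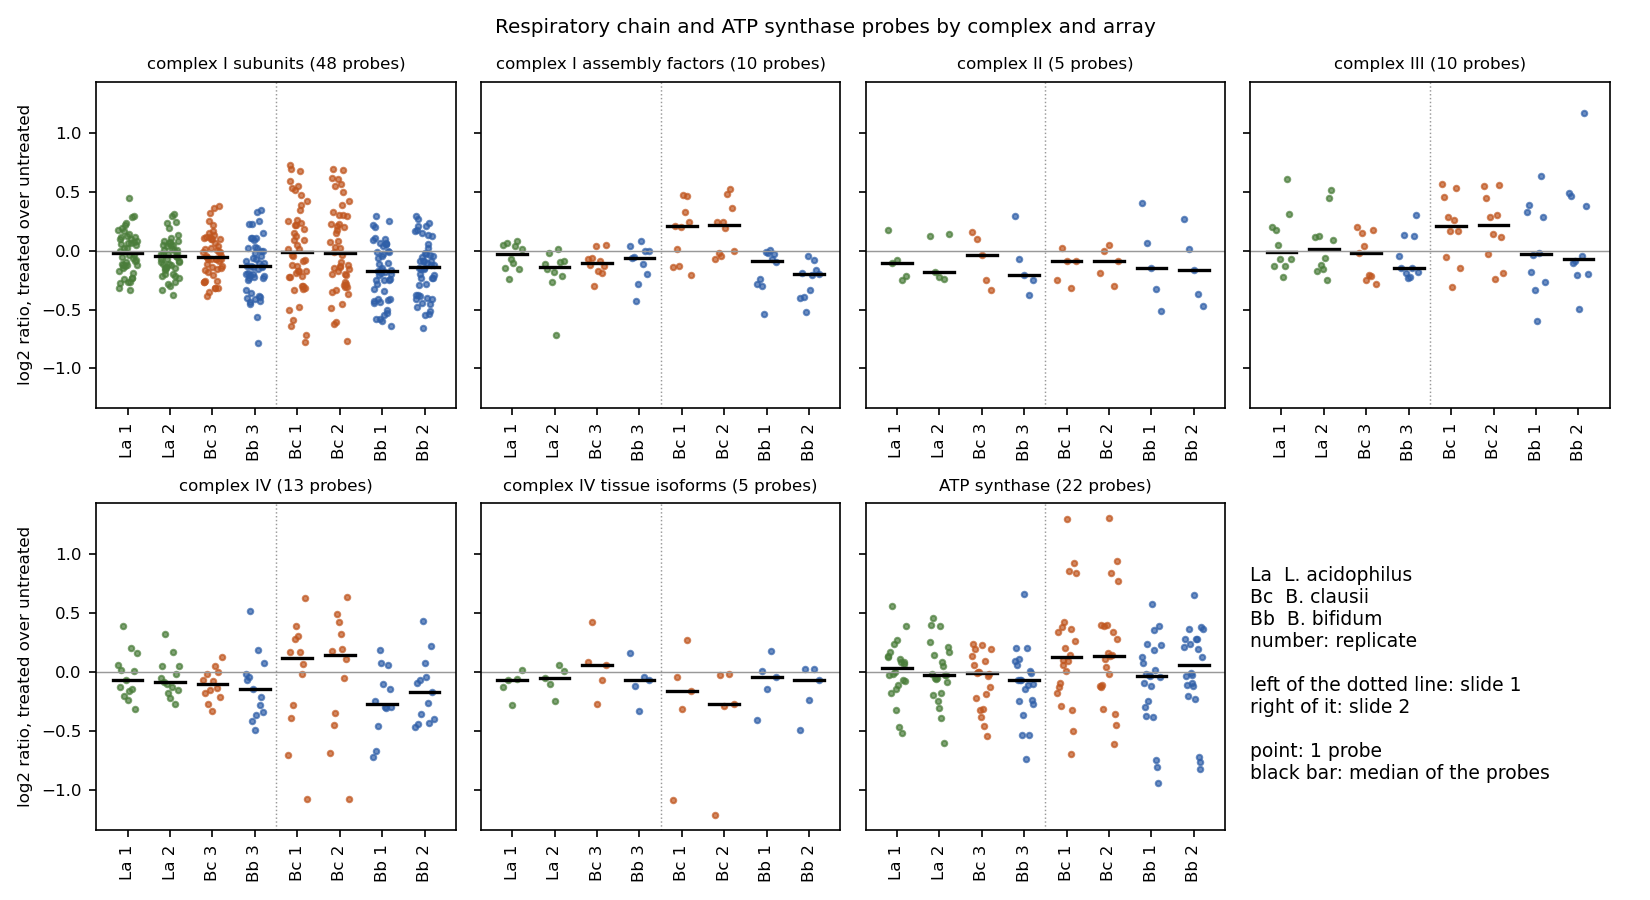
Log2 ratio of treated over untreated cells (y axis) of each tested member probe on the 8 arrays (x axis), in 1 panel per complex, with the median as a black bar. On slide 2 the B. clausii medians of the complex I assembly factors, complex III, complex IV and ATP synthase lie above 0 and the B. bifidum medians of complexes I to IV below 0, relative to spots of like brightness. With median centring those B. clausii medians fall below 0, and with processed signals the B. bifidum median of complex III rises to 0.10.

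For 4 groups the B. clausii arrays of slide 2 had the highest medians of the 8 arrays, at 0.21 and 0.22 for the 10 probes of complex I assembly factors, 0.21 and 0.21 for complex III, 0.12 and 0.15 for complex IV, and 0.12 and 0.14 for ATP synthase. The 48 probes of complex I subunits had medians of −0.01 and −0.02 there, and complex II −0.09 and −0.09, below its −0.04 on B. clausii replicate 3. The tissue isoforms of complex IV had their lowest medians there, −0.16 and −0.27. On B. clausii replicate 3, on slide 1, the assembly factors, complexes I, III and IV and ATP synthase had medians between −0.11 and −0.01. With B. bifidum the complex I medians were −0.18, −0.14 and −0.13 and the complex IV medians −0.27, −0.17 and −0.15 on replicates 1, 2 and 3. ATP synthase stood nearer 0 with B. bifidum, at −0.03, 0.06 and −0.07. The plot of values by complex shows that these medians are small beside the range within a complex.

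With L. acidophilus against untreated cells there was no member past an adjusted p of 0.05 in limma, 0 of 113, and 0% of all 28597 probes passed in either direction. At an unadjusted p below 0.05 there were 22 members and 2331 probes. The members' median was −0.03 against 0.01 for all probes, and it turned to 0.40 with median centring. With the replicate number as a block 7 members passed, and with the slide as a block 2 did. Both L. acidophilus arrays are on slide 1, so the slide block takes its slide effect from the other strains only. The replicate block pairs them with arrays of slide 2. Atp5mpl, a small membrane subunit of ATP synthase, had the lowest p, with −0.52 and −0.60 on the arrays and a mean of −0.56 ± 0.09 (SE, n = 2, adjusted p = 0.215). It turned to 0.00 with median centring and passed with either block. Ndufa11, an accessory subunit of complex I, had −0.32 and −0.34, a mean of −0.33 ± 0.08 (adjusted p = 0.396). Ndufb4, also an accessory subunit, had −0.26 and −0.30, a mean of −0.28 ± 0.08 (adjusted p = 0.550), and turned to 0.28 with median centring. On the high side were Uqcrh, the hinge subunit of complex III (0.41 ± 0.08, adjusted p = 0.290), Ndufs5 (0.29 ± 0.09, adjusted p = 0.553) and Ndufa9 (0.23 ± 0.08, adjusted p = 0.579), both accessory subunits of complex I.

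Over all 3 B. clausii arrays, 3 of 112 members passed, against 1.08% of all probes (0.469% higher and 0.612% lower). Atp5g3, one of the genes for the c subunit that forms the membrane ring of ATP synthase, rose by 0.95 ± 0.18 (SE, n = 3, adjusted p = 0.0490). Atp5j, a subunit of its peripheral stalk, rose by 0.93 ± 0.15 (adjusted p = 0.0472) from the arrays of slide 2 only, since it had no value on replicate 3. Atp5mpl fell by 0.62 ± 0.07 (adjusted p = 0.0256). No member passed when B. clausii replicate 1 or 2, B. bifidum replicate 1 or 2, or either L. acidophilus array was left out. Without B. clausii replicate 3 the count was 52, and without B. bifidum replicate 3 it was 14. With the replicate number as a block it was 40, with 18 higher and 22 lower, and with the slide as a block 37.

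Over all 3 B. bifidum arrays, 10 probes of 8 genes fell and 0 rose among 113 members, which is 8.85%, against 1.5% of all probes (0.294% higher and 1.21% lower). They were Atp5mpl, the complex I accessory subunits Ndufb4, Ndufs6 and Ndufa11, the assembly factor Ndufaf4, Uqcr11 of complex III, Cox6b1 of complex IV and Sdhc, a membrane anchor of complex II. Some of them were low with the other bacteria too. Atp5mpl averaged −0.56 with L. acidophilus and −0.62 with B. clausii, and Sdhc was below 0 on all 8 arrays. Ndufa11 averaged −0.33 and Ndufb4 −0.28 with L. acidophilus. Atp5mpl was at −0.75, −0.72 and −0.53 on replicates 1, 2 and 3 and fell by 0.67 ± 0.07 (SE, n = 3, adjusted p = 0.00864). Ndufb4 was at −0.60, −0.54 and −0.41 and fell by 0.52 ± 0.07 (adjusted p = 0.0145). Ndufs6, which all 3 of its probes place between −0.39 and −0.54, fell by 0.47 ± 0.07 (adjusted p = 0.0164). Ndufaf4, at −0.54, −0.52 and −0.43, fell by 0.50 ± 0.07 (adjusted p = 0.0183) by its brightest probe. Its 2 dimmer probes lay nearer 0 on slide 2, at −0.02 and −0.05 for one and −0.02 and −0.33 for the other. By the probes that passed, the 3 B. bifidum arrays lie on the same side of 0 for each of these 4 genes.

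The count of 10 was 0 without B. bifidum replicate 1 or without replicate 2, and 23 without replicate 3. Leaving out 1 array of B. clausii gave 6, 5 and 21 for replicates 1, 2 and 3, and leaving out 1 of L. acidophilus gave 2 in both cases. No member passed with the scanner's processed signals, with the deposited value table or in a fit of the B. bifidum arrays alone. With median centring 42 passed, all lower. The replicate block gave 29 (7 higher and 22 lower) and the slide block 36 (4 higher and 32 lower).

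Between B. clausii and B. bifidum over all arrays, 0 of 112 members passed in limma, against 0.0175% of all probes (0.0105% higher and 0.007% lower). At an unadjusted p below 0.05 there were 21 members and 3014 of all 28584 probes. The replicate block gave 0 and the slide block 4, and without B. clausii replicate 3 the count was 25, without B. bifidum replicate 3 it was 1. The members' median difference was 0.15 against 0.01 for all probes. The smallest p belonged to the dimmer of 2 Ndufab1 probes, the acyl carrier subunit of complex I (0.77, adjusted p = 0.237). Next came Ndufb4 (0.36 ± 0.10, adjusted p = 0.305), Atp5j (0.75 ± 0.20, adjusted p = 0.307) and Ndufaf4 (0.34 ± 0.10, adjusted p = 0.332). On the low side were Sdha, the flavoprotein of complex II (−0.42 ± 0.12, adjusted p = 0.330), and Uqcrh (−0.17 ± 0.10, adjusted p = 0.597). Uqcrh turned to 0.08 with median centring.

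**Figure D2:**
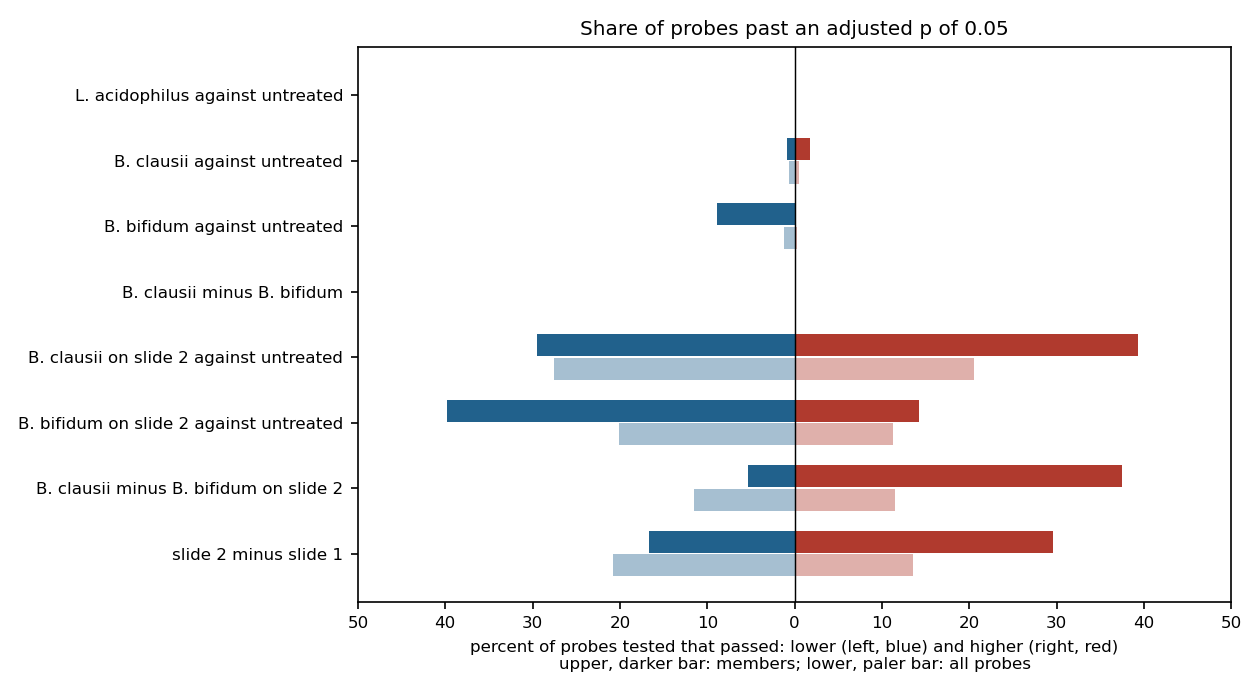
Share of tested probes (x axis, percent) that passed an adjusted p of 0.05 in each comparison, lower to the left and higher to the right, for the members (dark bars) and for all probes (pale bars). With loess normalization 37.5% of members were higher and 5.36% lower with B. clausii than with B. bifidum on slide 2, where all probes split evenly. With median centring no member passed there, and nearly all that passed against untreated cells were lower.

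Within slide 2, where both strains had 2 arrays each, the strains separated. With B. clausii, 44 members rose and 33 fell of 112, which is 68.8%, against 48% of all probes (20.5% higher and 27.6% lower). With B. bifidum, 16 rose and 45 fell of 113, which is 54%, against 31.4% of all probes (11.3% higher and 20.1% lower). The share lower with B. bifidum, 39.8% of members, was above that of all probes, and so was the share higher with B. clausii, 39.3%. The median member is far brighter than the median probe. Shares among probes of like brightness were not computed, here or in the other comparisons, so the part of brightness in these shares was not tested. Without B. clausii replicate 2 the first count was 48, and without B. bifidum replicate 1 the second was 32. Median centring left 1 higher and 49 lower with B. clausii, and 0 higher and 99 lower with B. bifidum. The scanner's processed signals gave 33 for B. bifidum, of which 27 were lower.

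The direct comparison on slide 2 had 42 members higher and 6 lower with B. clausii than with B. bifidum, which is 42.9% of 112, against 23% of all probes (11.5% higher and 11.5% lower). Both B. clausii arrays were above both B. bifidum arrays for 72 of 112 members (64.3%) and below both for 21 (18.8%), against 30.7% and 29.1% of all probes. The median difference was 0.18, and it was 0.22 with the processed signals and 0.49 with median centring, so the direction held. The number that passed did not: it was 10 with processed signals, 11 with the deposited table and 0 with median centring, where 27 had an unadjusted p below 0.05. Leaving out any 1 of the 4 arrays gave 29 to 31, at 29 without either B. clausii array, 30 without B. bifidum replicate 1 and 31 without replicate 2. By group, 18 complex I subunit probes of 48 were higher and 2 lower, 7 of 10 assembly factor probes were higher and 0 lower, and 8 of 22 ATP synthase probes were higher and 1 lower. Complex IV had 6 higher and 1 lower of 12, complex III 3 and 0 of 10, complex II 0 and 1 of 5, and the tissue isoforms of complex IV 0 and 1 of 5. The median differences of these groups, other than the isoforms, were above 0 with loess, processed signals and median centring alike.

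**Figure D3:**
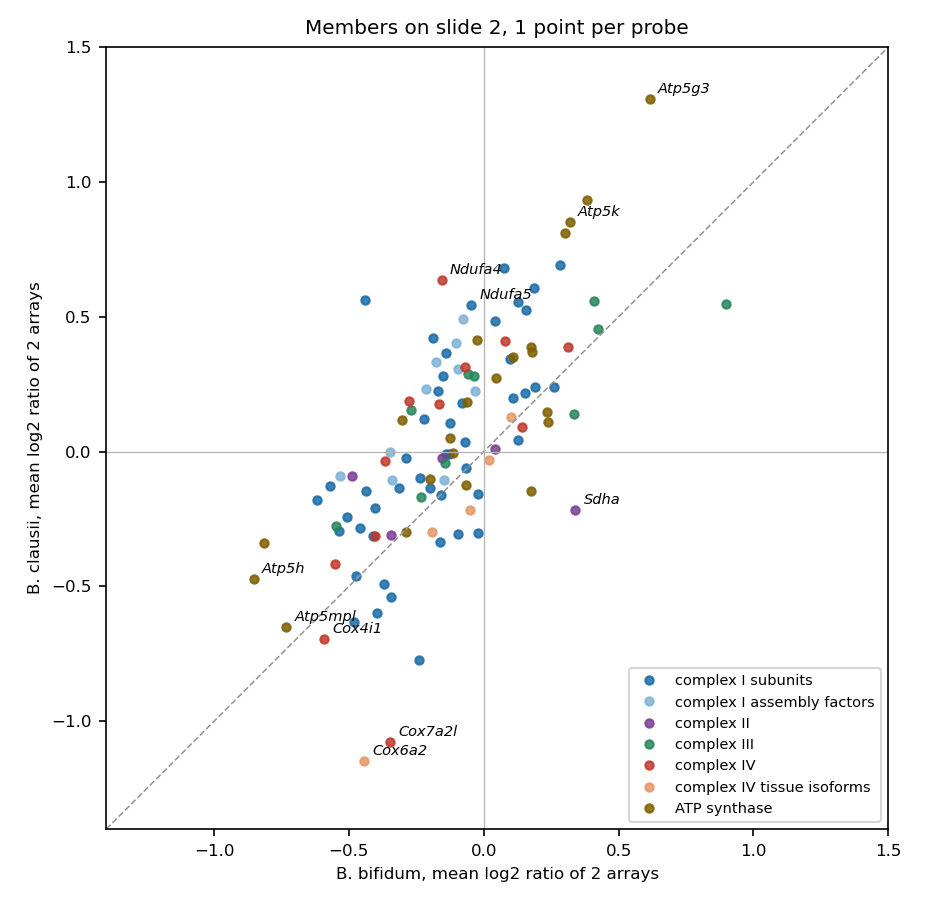
Mean log2 ratio on slide 2 with B. clausii (y axis) against B. bifidum (x axis), 1 point per member probe, coloured by complex, with the dashed line where both are equal. Most points lie above the line, with the dimmer Ndufab1 probe, Ndufa4 and Atp5g3 farthest above it and Cox7a2l and Cox6a2 farthest below. Median centring lowers both axes and keeps Atp5g3 and Ndufa4 above the line.

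In ATP synthase the members moved in opposite directions from each other. Atp5g3 had 1.30 and 1.31 on the B. clausii arrays of slide 2 and 0.23 on replicate 3. With B. bifidum it had 0.58, 0.65 and 0.66, and with L. acidophilus 0.27 and 0.39, so it stood above 0 on all 8 arrays. On slide 2 it rose by 1.31 ± 0.05 with B. clausii (SE, n = 2, adjusted p = 4.2e-05) and by 0.62 ± 0.05 with B. bifidum (adjusted p = 0.000467), and the strains differed by 0.69 ± 0.07 (adjusted p = 0.00158). With median centring the B. bifidum value turned to −0.38, the B. clausii value stayed above 0 at 0.71, and the difference was 1.09. The other c-ring genes moved less, with Atp5g1 at 0.42 and 0.40 and Atp5g2 at 0.20 and 0.17 on the same 2 B. clausii arrays.

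Atp5k, the e subunit of the membrane part of ATP synthase, differed most between the slides. It was at 0.86 and 0.84 with B. clausii and 0.36 and 0.28 with B. bifidum on slide 2. On slide 1 it was at −0.46 for B. clausii, −0.74 for B. bifidum and −0.47 and −0.39 for L. acidophilus. The arrays of the 2 slides do not overlap. On slide 2 it rose by 0.85 ± 0.05 with B. clausii (adjusted p = 7.79e-05) and 0.32 ± 0.05 with B. bifidum (adjusted p = 0.00355, lost without B. bifidum replicate 1), and the strains differed by 0.53 ± 0.07 (adjusted p = 0.00301). Median centring gave 0.20, −0.61 and 0.81 for these 3 values, none of which passed.

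Atp5j of the peripheral stalk had 0.92 and 0.94 with B. clausii and 0.39 and 0.38 with B. bifidum on slide 2, and 0.09, −0.09 and −0.24 on the slide 1 arrays that gave a value. It rose by 0.93 ± 0.05 with B. clausii on slide 2 (adjusted p = 8.96e-05) and by 0.38 ± 0.05 with B. bifidum (adjusted p = 0.0031, lost without B. bifidum replicate 1), and the B. bifidum value turned to −0.61 with median centring. With the deposited table and with processed signals the B. bifidum value was 0.21 and did not pass. Atp5h, another stalk subunit, was low on slide 2 only, at −0.50 and −0.45 with B. clausii and −0.95 and −0.76 with B. bifidum, against −0.02 to 0.07 on slide 1. Its fall with B. bifidum on slide 2 was 0.85 ± 0.06 (adjusted p = 0.000297), and a second probe gave −0.81 and −0.82. Atp5mpl lay between −0.52 and −0.75 on all 8 arrays. On slide 2 it fell by 0.65 ± 0.05 with B. clausii (adjusted p = 0.000177) and by 0.73 ± 0.05 with B. bifidum (adjusted p = 0.000273). Being alike with every strain and on both slides, its ratio cannot be told apart from a difference between the dyes.

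The probes of the catalytic head did not all give the same answer. Atp5b, the beta subunit, by its main probe lay between −0.13 and 0.06 on all 8 arrays and did not pass on slide 2 with B. clausii (−0.12 ± 0.04, adjusted p = 0.0572) or B. bifidum (−0.06 ± 0.04, adjusted p = 0.327). Its dimmest probe did pass, at −0.30 ± 0.05 with B. clausii (adjusted p = 0.00536) and −0.29 ± 0.05 with B. bifidum (adjusted p = 0.00888). Atp5a1, the alpha subunit, was above 0 on all 8 arrays by its brighter probe, from 0.08 to 0.40, and rose by 0.37 ± 0.08 with B. clausii on slide 2 (adjusted p = 0.0116). That call was lost without either of its arrays, and the value turned to −0.21 with median centring. A second Atp5a1 probe had the other sign there, −0.15 ± 0.05 (adjusted p = 0.0594). With B. bifidum on slide 2 the brighter probe had 0.18 ± 0.08 (adjusted p = 0.157).

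**Figure D4:**
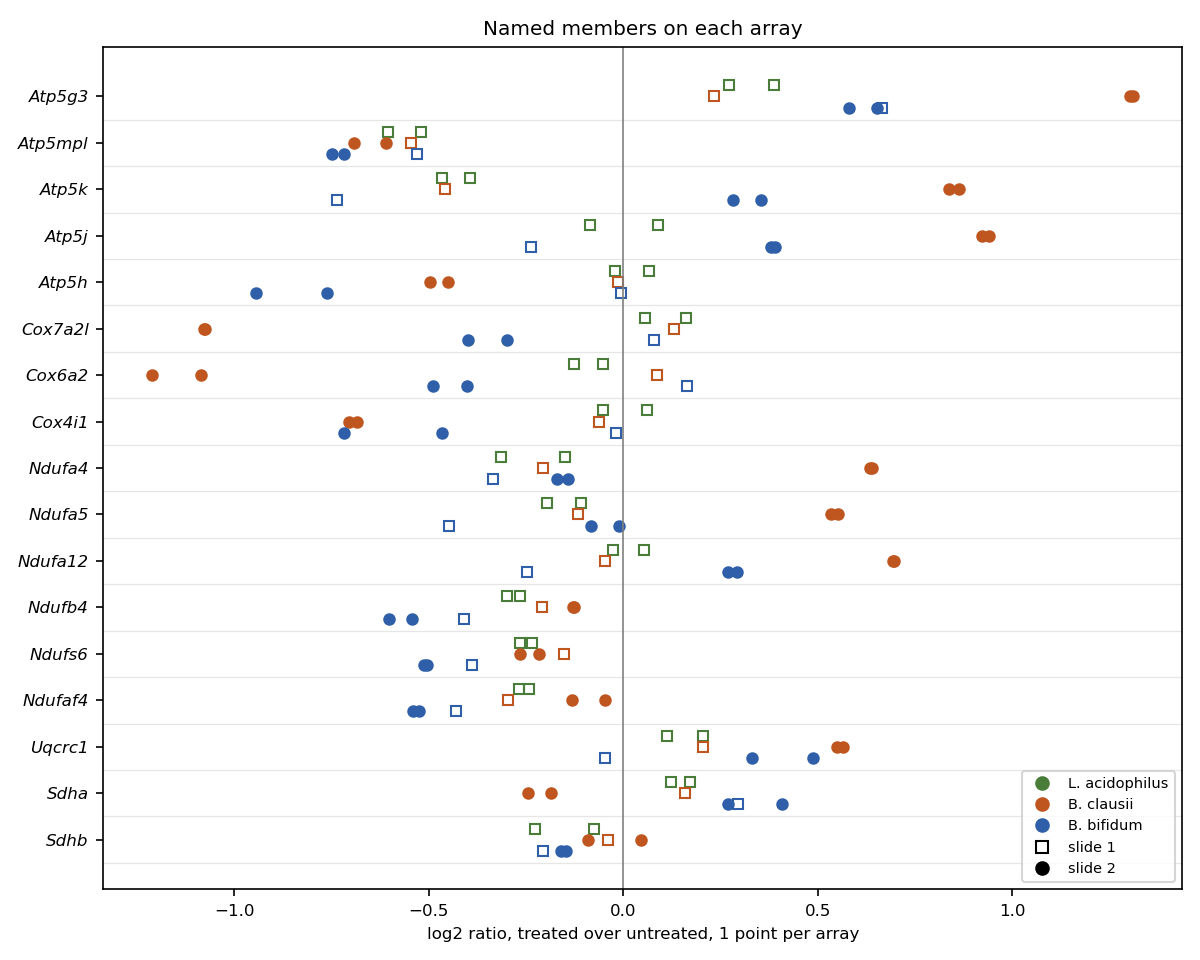
Log2 ratio of treated over untreated cells (x axis) on each of the 8 arrays for 17 members, coloured by strain, with open squares for slide 1 and filled circles for slide 2. Atp5mpl lies below 0 and Atp5g3 above 0 on all 8 arrays, while Atp5k and Cox7a2l change side with the slide. Median centring turns Atp5g3 and Atp5k with B. bifidum on slide 2 below 0 and takes Atp5mpl with L. acidophilus to 0.

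The largest falls with B. clausii on slide 2 were in complex IV. Cox7a2l, which links complexes III and IV into supercomplexes, had −1.08 and −1.08 with B. clausii and −0.30 and −0.40 with B. bifidum on slide 2, and 0.06 to 0.16 on the 4 slide 1 arrays. It fell by 1.08 ± 0.05 with B. clausii on slide 2 (adjusted p = 5.81e-05) and differed from B. bifidum by −0.73 ± 0.07 (adjusted p = 0.00145). Cox6a2, the heart and muscle isoform of a complex IV subunit, had −1.09 and −1.21 with B. clausii and −0.40 and −0.49 with B. bifidum on slide 2, and −0.13 to 0.16 on slide 1. It fell by 1.15 ± 0.05 with B. clausii (adjusted p = 5.71e-05) and differed from B. bifidum by −0.70 ± 0.08 (adjusted p = 0.00189). Its mean log2 brightness was 8.83, among the dimmer members.

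Cox4i1, the general form of subunit 4, was at −0.71 and −0.69 with B. clausii and −0.72 and −0.47 with B. bifidum on slide 2, and between −0.06 and 0.06 on slide 1. It fell by 0.70 ± 0.07 with B. clausii (adjusted p = 0.000514) and by 0.59 ± 0.07 with B. bifidum (adjusted p = 0.00152), and the strain arrays overlap. Cox5a did not pass on slide 2 with B. clausii (0.18 ± 0.06, adjusted p = 0.0654) or B. bifidum (−0.17 ± 0.06, adjusted p = 0.102). The strains differed by 0.34 ± 0.09 for it (adjusted p = 0.0418), a call that was lost without any 1 of the 4 arrays. Ndufa4, named for complex I and now placed with complex IV, had 0.63 and 0.64 with B. clausii and −0.14 and −0.17 with B. bifidum on slide 2, and −0.15 to −0.34 on slide 1. The strain difference on slide 2, 0.79 ± 0.08 (adjusted p = 0.00131), had the second smallest p of the members, after the dimmer Ndufab1 probe, and it was 1.11 with median centring (adjusted p = 0.417).

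In complex I, the subunits split with B. clausii on slide 2, where 18 probes rose and 18 fell of 48, while with B. bifidum 4 rose and 23 fell. These shares, 37.5% and 37.5% with B. clausii and 8.33% and 47.9% with B. bifidum, stand beside 20.5% and 27.6%, and 11.3% and 20.1%, of all probes. With median centring every complex had a median below 0 with both strains there. Ndufa12, an accessory subunit, had 0.70 and 0.69 with B. clausii and 0.29 and 0.27 with B. bifidum on slide 2, and −0.25 to 0.05 on slide 1. Its rise with B. clausii was 0.69 ± 0.05 (adjusted p = 0.00012), and median centring gave 0.07. Ndufa5 had 0.53 and 0.55 with B. clausii and −0.01 and −0.08 with B. bifidum on slide 2, a difference of 0.59 ± 0.07 (adjusted p = 0.00222), with −0.11 to −0.45 on slide 1. That call was lost with the deposited table, with processed signals and with median centring, where the differences were 0.61, 0.61 and 0.93.

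Ndufs1, the largest core subunit, had 0.24 ± 0.06 with B. clausii (adjusted p = 0.0143) and 0.19 ± 0.06 with B. bifidum (adjusted p = 0.0461) on slide 2. Both calls depended on single arrays, the first on B. clausii replicate 2 and the second on every array except the 2 replicates 3, and both values turned with median centring, to −0.41 and −0.77. Neither call held with the deposited table or with processed signals, where the values were 0.32 with B. clausii and 0.05 with B. bifidum. Ndufv1, the subunit that binds NADH, lay between −0.12 and −0.23 on all 8 arrays, and passed with B. clausii on slide 2 (−0.16 ± 0.05, adjusted p = 0.0376) but not with B. bifidum there (−0.16 ± 0.05, adjusted p = 0.058). The first call was lost without any 1 of the 4 arrays of slide 2, and the value turned to 0.10 with processed signals. Ndufb4 and Ndufs6 were lower with B. bifidum on slide 2 by 0.57 ± 0.04 (adjusted p = 0.000395) and 0.51 ± 0.04 (adjusted p = 0.000525), where B. clausii had −0.13 and −0.13 for Ndufb4 and −0.22 and −0.27 for Ndufs6. The 2 probes of Ndufab1 passed in opposite directions with B. clausii on slide 2, at 0.52 and 0.61 for the dimmer and −0.19 and −0.18 for the brighter. Both were higher with B. clausii than with B. bifidum there, by 1.00 ± 0.07 (adjusted p = 0.000609) and 0.43 ± 0.08 (adjusted p = 0.0136).

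In complex II, 1 of 2 Sdha probes moved in opposite directions with the 2 strains. It had −0.25 and −0.19 with B. clausii and 0.41 and 0.27 with B. bifidum on slide 2, and 0.12 to 0.29 on slide 1. It fell by 0.22 ± 0.05 with B. clausii (adjusted p = 0.0169, lost without either B. clausii array of slide 2) and rose by 0.34 ± 0.05 with B. bifidum (adjusted p = 0.00438, lost without B. bifidum replicate 1). The strains differed by −0.55 ± 0.07 (adjusted p = 0.00384), and with median centring the B. bifidum value turned to −0.41 and the difference was −0.43. The other Sdha probe, of like brightness, did not pass in these comparisons, with 0.01 ± 0.05, 0.04 ± 0.05 and a strain difference of −0.03 ± 0.06 (adjusted p = 0.901, 0.563 and 0.778). Sdhb, the iron-sulfur subunit, was between −0.23 and 0.05 on all 8 arrays and did not pass on slide 2 with B. clausii (−0.02 ± 0.06, adjusted p = 0.771) or B. bifidum (−0.15 ± 0.06, adjusted p = 0.101). Sdhc was below 0 on all 8 arrays, from −0.24 to −0.38, which cannot be told apart from a difference between the dyes.

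In complex III, Uqcrc1, a core subunit, had 0.56 and 0.55 with B. clausii and 0.33 and 0.49 with B. bifidum on slide 2, and −0.05 to 0.20 on slide 1. It rose by 0.56 ± 0.06 (adjusted p = 0.000498) and 0.41 ± 0.06 (adjusted p = 0.0026), and median centring turned these to −0.06 and −0.55. Uqcrfs1, the Rieske iron-sulfur protein, had 0.29 and 0.29 with B. clausii and −0.03 and −0.09 with B. bifidum. It rose by 0.29 ± 0.05 with B. clausii (adjusted p = 0.00658, lost without either of its arrays), turned to −0.37 with median centring, and did not pass with B. bifidum (−0.06 ± 0.05, adjusted p = 0.469). Its strain difference was 0.35 ± 0.08 (adjusted p = 0.0233), lost without any 1 of the 4 arrays. Uqcrh was above 0 on all 8 arrays, from 0.11 to 0.51, and its brighter probe, with no value on B. clausii replicate 3, ran from 0.12 to 1.17.

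The slides themselves were compared for the 2 strains present on both, as slide 2 minus slide 1 averaged over B. clausii and B. bifidum. Of 108 members, 32 were higher and 18 lower on slide 2, against 34.3% of all probes (13.5% higher and 20.8% lower). That split did not hold under other scalings, with 12 higher and 14 lower by the deposited table and 0 higher and 14 lower with median centring, where the members' median was −0.55. Atp5k had the largest difference, 1.18 ± 0.06 (adjusted p = 0.000271), and a second probe of Ndufc1 the next, 0.93 (adjusted p = 0.000379). Other named members on the high side were Cox7a2 of complex IV (0.65 ± 0.05, adjusted p = 0.000671), Ndufa12 (0.63 ± 0.06, adjusted p = 0.000793) and the main probe of Ndufc1 (0.55 ± 0.06, adjusted p = 0.00135). With median centring Atp5k was at 0.56, Cox7a2 at 0.01, Ndufa12 at −0.03 and Ndufc1 at −0.09, and none of these passed. On the low side were Cox6a2 (−0.92 ± 0.07, adjusted p = 0.000557), Cox7a2l (−0.82 ± 0.06, adjusted p = 0.000628), Ndufv3 (−0.57 ± 0.05, adjusted p = 0.001) and Ndufs3 (−0.49 ± 0.05, adjusted p = 0.00136). Each slide 1 value rests on 1 array per strain, and slides, scans and cultures cannot be told apart here. The signal at which a spot counts as saturated was 65526 on slide 2 and 633884 to 661197 on slide 1. For B. clausii the slide 1 array is replicate 3, with the fewest probes above background and the grid rated as not good.

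Over the members, the 2 B. clausii arrays of slide 2 correlated at r = 0.976 and the 2 B. bifidum arrays at r = 0.912, while B. clausii on slide 2 against replicate 3 of slide 1 gave r = 0.000 for both arrays and B. bifidum r = 0.133 and 0.210. These same-strain correlations are over 109 to 112 probes that share an array, and all r values here are given as a description. The plot of slide 2 against slide 1 shows each strain across slides, with members on both sides of the dashed line. Arrays of different strains gave r = 0.644 to 0.781 over the members on the same slide, and −0.092 to 0.485 across slides. Over all probes, different strains on the same slide gave r = 0.236 to 0.566. Same-strain pairs across slides gave −0.009 for B. clausii, and 0.023 and 0.025 for B. bifidum. Arrays were thus more alike by slide than by strain, for members and for all probes, and the cause was not tested.

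**Figure D5:**
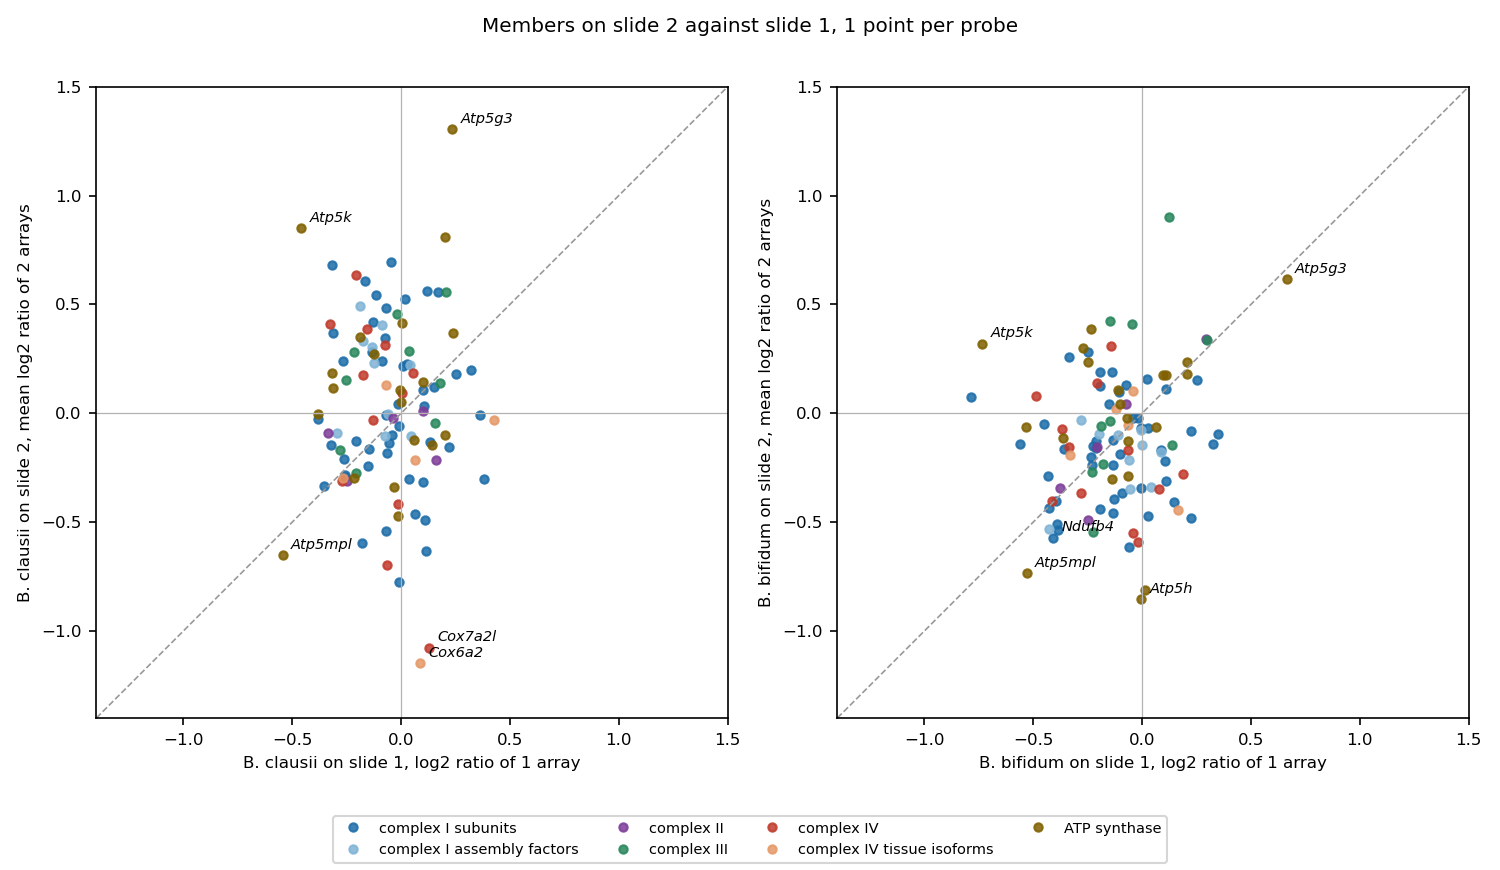
Mean log2 ratio of 2 arrays on slide 2 (y axis) against the log2 ratio of the array on slide 1 (x axis) for B. clausii (left) and B. bifidum (right), 1 point per member probe, coloured by complex, with the dashed line where both are equal. B. clausii values spread from −1.15 to 1.31 on slide 2, and points lie in all 4 quadrants for both strains. Atp5k is above 0 on slide 2 and below 0 on slide 1 with both strains, by loess; with median centring its slide 2 value is 0.20 with B. clausii and −0.61 with B. bifidum.

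Genes that serve the same complexes were set beside the members. Of the factors that assemble or mature them, 22 of 43 probes were higher and 0 lower with B. clausii than with B. bifidum on slide 2, led by Acad9 (0.73 ± 0.07, adjusted p = 0.00112), which helps build complex I, and Cox20 (0.70 ± 0.07, adjusted p = 0.00128), which helps build complex IV. Of all probes 11.5% were higher and 11.5% lower. Their median difference was 0.25, 0.24 with processed signals and 0.39 with median centring, where 0 passed. Against untreated cells 5 rose and 20 fell with B. bifidum on slide 2, where 11.3% of all probes rose and 20.1% fell, among them Ecsit (−0.92 ± 0.05, adjusted p = 0.00017) and Foxred1 (−0.93 ± 0.06, adjusted p = 0.000216), both complex I assembly factors. With B. clausii 18 rose and 11 fell, where 20.5% of all probes rose and 27.6% fell, led by Cox16 (1.08 ± 0.05, adjusted p = 5.07e-05) and Foxred1 (−1.08 ± 0.06, adjusted p = 6.83e-05).

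Of 23 probes of citric acid cycle and pyruvate dehydrogenase genes, 8 were higher and 1 lower with B. clausii than with B. bifidum on slide 2, led by Pdha1 (0.62 ± 0.06, adjusted p = 0.00152) and Idh3a (0.50 ± 0.07, adjusted p = 0.00407), where 11.5% of all probes were higher and 11.5% lower. The counts of the next 2 lists are to be read against the same shares. Electron carriers and exchangers had 6 higher and 3 lower of 28, among them Vdac1, a channel of the outer membrane (−0.62 ± 0.09, adjusted p = 0.00478), and Etfb, an electron transfer flavoprotein (0.43 ± 0.07, adjusted p = 0.00698). Genes of mitochondrial biogenesis and mtDNA expression had 6 higher and 5 lower of 24, among them the protease subunit Clpp (0.72 ± 0.08, adjusted p = 0.00185) and the ETS-family factor Gabpa (0.57 ± 0.07, adjusted p = 0.00296). Beside these, 11 of 14 probes of macrophage markers fell with B. clausii on slide 2 and 0 rose, and with B. bifidum 5 fell and 1 rose, where 27.6% and 20.1% of all probes fell. Among them Lyz2 fell by 1.64 ± 0.05 with B. clausii (adjusted p = 3.12e-05). Over all 3 arrays of either strain 0 of these 14 probes passed, against 1.08% (B. clausii) and 1.5% (B. bifidum) of all probes. Between the slides 64.3% of them were lower and 7.14% higher on slide 2, against 20.8% and 13.5% of all probes. Their part in the members' differences was not tested. The samples were bulk RNA of 1 cell line. Fewer cells that hold a marker's RNA and less of it per cell cannot be told apart.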

How the data were processed

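Per the file headers, the deposited text files give each spot's intensity, its background and a log10 ratio of Cy5 over Cy3. The scanner software was Agilent's Feature Extraction, version 10.7.3.1 in the headers and 10.5.1.1 in the submitters' processing notes. The authors' deposited value table equalled that log10 ratio within 0.005. With limma 3.58.1 in R 4.3.3, median signals were background-corrected by normexp (offset 50) and normalized by loess. Outlier and saturated spots were removed and probes well above background on at least 2 arrays kept (28598). Probes were named through accessions. Log2 ratios were fitted with lmFit and eBayes over all 8 arrays, with a mean per strain, or per strain and slide for comparisons of slides, and adjusted by Benjamini-Hochberg over all probes (threshold 0.05). The fits were tested on simulated data.

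Members and lists were chosen with earlier results of these data known. A gene is given by its probe with values on the most arrays, then the brightest. Errors are printed for up to 4 passing genes with the smallest p in each direction (3 where fewer than 2 passed), up to 2 per list, and the fixed genes Ndufs1, Ndufv1, Sdha, Sdhb, Uqcrc1, Uqcrfs1, Cox4i1, Cox5a, Atp5b, Atp5a1 and Cox4i2. The single values of 1 member that this rule names are not reported here.

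Same-numbered B. clausii and B. bifidum arrays deviated together from their strain means (r = 0.391, 0.252 and 0.447 over 28083 probes). Numbers coincide with slides, and differently numbered arrays of slide 2 gave r = 0.197 and 0.347. The number of arrays limits precision.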

Additional observations from a re-analysis of the deposited data

Results flagged for a closer look

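The differences between strains or between slides that passed a test of the difference itself are listed here as log2 differences among the named members. On slide 2, B. clausii was above B. bifidum for Ndufa4 (0.79), Atp5g3 (0.69), Ndufa5 (0.59), Atp5k (0.53), Uqcrfs1 (0.35) and Cox5a (0.34). It was below B. bifidum for Cox7a2l (−0.73), Cox6a2 (−0.70) and Sdha (−0.55). A second Sdha probe of like brightness did not pass. None of these strain differences passed with median centring. Those of Ndufa5, Atp5k, Uqcrfs1 and Cox5a also did not pass with the deposited table or with processed signals. Slide 2 was above slide 1, over both strains, for Atp5k (1.18), Cox7a2 (0.65), Ndufa12 (0.63), Ndufc1 (0.55), Uqcrc1 (0.40) and Ndufs1 (0.33). None of these slide differences passed with median centring. Those of Ndufa12 and Ndufs1 also did not pass with the deposited table or with processed signals. Slide 2 was below slide 1 for Cox6a2 (−0.92), Cox7a2l (−0.82), Cox4i1 (−0.60), Ndufv3 (−0.57) and Ndufs3 (−0.49), which passed with each of these scalings. Median centring lowered the members as a whole. No strain had the 4 arrays needed to look for a single array far from the others.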

How the results depend on the processing

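Loess and plain median centring gave different pictures of the members against untreated cells, and the cause was not tested. With median centring the median member moved to −1.03 (B. bifidum, slide 2), −0.29 (B. bifidum, slide 1), −0.52 (B. clausii, slide 2), −0.20 (B. clausii, slide 1) and 0.39 (L. acidophilus). The deposited table gave −0.14 for B. bifidum on slide 1 and −0.078 for L. acidophilus, the processed signals −0.14 and −0.084, and no background correction −0.14 for B. bifidum on slide 2.

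Counts of members that passed moved as follows. With median centring they were 42 for B. bifidum, 99 for B. bifidum on slide 2, 0 for B. clausii, 50 for B. clausii on slide 2, 0 for the strain difference on slide 2 and 14 for the slides. The deposited table gave 0, 34, 0, 11 (strains, slide 2) and 26 (slides), and the processed signals 0, 33, 0, 10 and 25, in the order B. bifidum, B. bifidum on slide 2, B. clausii, strains and slides. Fits of 1 strain's arrays alone gave 0 for B. bifidum and 0 for B. clausii. The B. clausii count of 3 was also 8 with 1 probe per gene, 0 with an intensity trend, 1 without background correction, 1 without a filter and 15 with a strict filter.

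The replicate block, in which same-numbered arrays are paired, gave 40 for B. clausii, 29 for B. bifidum, 7 for L. acidophilus and 0 for the strain difference. The slide as a block gave 37, 36, 2 and 4. Leaving out 1 array gave 0 to 23 for B. bifidum, 32 to 61 for B. bifidum on slide 2, 0 to 52 for B. clausii, 48 to 77 for B. clausii on slide 2, 0 to 25 for the strain difference, 29 to 48 for it on slide 2, 0 to 0 for L. acidophilus and 42 to 49 for the slides, which could not be fitted without either replicate 3.

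Single genes turned with median centring. With B. bifidum on slide 2 these were Atp5g3 (−0.38), Atp5j (−0.61), Atp5k (−0.61), Ndufs1 (−0.77), Sdha (−0.41) and Uqcrc1 (−0.55). With B. clausii on slide 2 they were Atp5a1 (−0.21), Ndufs1 (−0.41), Uqcrc1 (−0.056) and Uqcrfs1 (−0.37), and between slides Ndufa12 (−0.026), Ndufc1 (−0.087), Ndufs1 (−0.34) and Uqcrc1 (−0.28). With L. acidophilus Atp5mpl (4e-04) and Ndufb4 (0.28) turned, and Uqcrh between strains (0.079). Ndufv1 with B. clausii on slide 2 turned to 0.10 with the deposited table and with processed signals. Other slide 2 calls against untreated cells were lost with both of these, without a change of sign. They were Atp5j, Atp5k and Ndufs1 with B. bifidum, and Atp5a1, Ndufs1 and Uqcrfs1 with B. clausii.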
